A study of Mus musculus with 2 samples.

Results

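The proteasome is the barrel-shaped protease that degrades ubiquitin-tagged proteins, and its genes in donor T cells after allogeneic hematopoietic cell transplantation (allo-HCT) are described here. They were taken as every gene whose symbol starts with Psma, Psmb, Psmc, Psmd, Psme, Psmf or Psmg followed by a digit, which gave 50 of the 32285 genes in the deposited tables. Of these, 5 were treated as the immunoproteasome group (Psmb8, Psmb9, Psmb10, Psme1 and Psme2). A further 14 were the alpha and beta ring genes of the ordinary core, called the other core, and 17 were the subunits of the regulatory particle. The remaining members were 3 other activators or inhibitors, 7 assembly chaperones, 2 tissue-restricted core genes and 2 genes that match by symbol but are not subunits.

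The study examined how T cells change in acute graft-versus-host disease (aGvHD) in a fully allogeneic mouse model. BALB/c (H-2d) recipients were lethally irradiated and given T cell-depleted bone marrow and purified splenic wild-type T cells of C57BL/6 (H-2b) donors (the labels and a legend of the study differ in the dose of T cells). The mice were between 6 and 12 weeks old, and the study's methods name female mice in one place and both sexes in another. Donor T cells, sorted from recipient spleens as CD45+, H2Kb+, H2Kd- and TCRβ+, were pooled from 5 spleens and sequenced as 1 library at day +7 and 1 library at day +14. Both libraries came from the same kind of allogeneic recipient, and resting T cells or T cells of a syngeneic transplant were not analysed here. Both library names carry PBS, that of day +14 also carries GVHD, the label protocol speaks of a sort on day +7 for both, and the day was taken from the titles.

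With 1 library per day there was no replicate, so no test between days or between cell gates was made. Each level is a sum of unique molecular identifiers (UMIs) over cells, given as counts per 1000000 UMIs (CPM), and each interval is a 95% interval for counting error. Such an interval covers neither the spread between mice nor the spread between cell preparations. A difference between days is therefore a difference between 2 libraries, and day cannot be told apart from library.

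The 20S core of the proteasome is a stack of 2 outer alpha rings and 2 inner beta rings. The cutting is done by the beta subunits Psmb6, Psmb7 and Psmb5. Interferon-γ induces 3 replacements for them, Psmb9, Psmb10 and Psmb8, which enter newly built particles and favour peptides that fit MHC class I molecules. Interferon also induces Psme1 and Psme2, the PA28 cap, which opens the core without ATP. The 19S regulatory particle, made of the Psmc ATPases and the Psmd non-ATPases, binds and unfolds ubiquitin-tagged proteins. Lymphocytes hold much immunoproteasome even at rest, and activated T cells depend on proteasomes for cell cycle control.

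In the mouse genome (GRCm38), 4 of the 5 genes of the immunoproteasome group lie in pairs, and Psmb10 (chr8:105935735-105938444, minus strand) lies apart from them. Psmb8 (chr17:34197721-34201454, plus strand) and Psmb9 (chr17:34181987-34187764, minus strand) sit in the MHC class II region beside the peptide transporter genes Tap2 and Tap1. Psme1 (chr14:55578123-55581529, plus strand) and Psme2 (chr14:55587441-55591113, minus strand) are neighbours on another chromosome. The constitutive partners Psmb6 (chr11:70525367-70527858, plus strand) and Psmb5 (chr14:54614119-54618022, minus strand) are not linked to their replacements. RefSeq promoter windows (GRCm38.p6, 250 bases before to 50 bases after the start) were matched by symbol for 42 of the 50 members, in 45 windows.

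Stretches of 170 bases, from 150 bases before the start to 20 bases after it, are shown for 3 genes of the immunoproteasome group and 3 of the ordinary core, because the levels of these 2 groups differed between cycling and non-cycling cells. The genes were picked from those whose window held a match. Capitals mark a GAS match (TTCNNNGAA, the interferon-γ activated site) in Psmb8, a CCAAT match in Psmb9, an ISRE match (GAAANNGAAA, the interferon response element) in Psme1, and ARE matches (TGACNNNGC or TGAGNNNGC, the kind of element bound by NFE2L1 and NFE2L2) in the core genes. Both strands were searched, so some capitals read as the reverse complement, and the 2 ARE spellings were counted as 1 motif. All windows are printed 5′ to 3′ on the strand of the gene.
Psmb8 (chr17:34198045-34198214, plus strand): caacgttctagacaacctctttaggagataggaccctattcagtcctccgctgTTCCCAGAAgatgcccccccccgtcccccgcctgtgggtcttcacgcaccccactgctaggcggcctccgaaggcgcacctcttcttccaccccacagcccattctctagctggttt
Psmb9 (chr17:34187311-34187480, minus strand): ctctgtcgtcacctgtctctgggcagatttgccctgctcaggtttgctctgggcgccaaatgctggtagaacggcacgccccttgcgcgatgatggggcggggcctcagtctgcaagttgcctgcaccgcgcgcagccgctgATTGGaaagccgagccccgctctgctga
Psme1 (chr14:55578344-55578513, plus strand): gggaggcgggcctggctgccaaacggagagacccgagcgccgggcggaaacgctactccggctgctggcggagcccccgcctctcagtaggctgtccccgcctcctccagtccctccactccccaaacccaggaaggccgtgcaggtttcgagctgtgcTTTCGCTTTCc
Psmb6 (chr11:70525207-70525376, plus strand): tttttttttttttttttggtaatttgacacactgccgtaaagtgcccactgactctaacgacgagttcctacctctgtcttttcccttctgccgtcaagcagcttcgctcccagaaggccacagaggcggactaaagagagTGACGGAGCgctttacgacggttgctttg
Psmb5 (chr14:54617976-54618145, minus strand): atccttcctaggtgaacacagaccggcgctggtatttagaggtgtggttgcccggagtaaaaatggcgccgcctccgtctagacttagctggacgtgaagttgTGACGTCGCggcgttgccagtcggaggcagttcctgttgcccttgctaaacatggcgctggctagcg
Psma4 (chr9:54950709-54950878, plus strand): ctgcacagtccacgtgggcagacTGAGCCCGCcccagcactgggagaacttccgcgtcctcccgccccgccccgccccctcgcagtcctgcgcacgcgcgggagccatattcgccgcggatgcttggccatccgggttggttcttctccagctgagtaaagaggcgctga

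The ARE letters were in 5 of 8 alpha ring windows and in 3 of 4 beta ring windows, and in 0 of 6 windows of the immunoproteasome group, against 27.8% of all 32851 promoter windows. The ATPases had them in 2 of 6 windows and the non-ATPases in 3 of 9. The GAS letters were in 1 of 6 windows of the immunoproteasome group, the one of Psmb8, against 8.30% of all windows, and the ISRE letters in 1 of 6, the one of Psme1, against 3.44%. The CCAAT letters were in 37.4% of all windows and in 1 of 6 of that group. These matches are descriptions of short letter patterns and say nothing of binding. The windows use RefSeq starts, which can differ from the ends of the gene coordinates. By those coordinates the windows shown for Psmb8, Psmb9 and Psme1 lie wholly inside their genes. Those shown for Psmb6, Psmb5 and Psma4 span the start of the gene. Whether this difference affects the counts of matches was not tested.

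The libraries held 7355 barcodes with 87124828 UMIs at day +7 and 8043 barcodes with 84233811 UMIs at day +14. Barcodes with 500 to 7500 genes and at most 15% mitochondrial UMIs were kept, 7179 at day +7 and 7794 at day +14, with medians of 9210 and 8144 UMIs; 17 kept barcodes were found in both libraries. The T gate (at least 3 UMIs of 6 T cell genes, more than of 26 genes of other lineages) took 6951 and 7614 cells, 96.8% and 97.7% of those kept, so the T cell label held for nearly all of them. CD8 cells (T gate, with Cd8a or Cd8b1 and no Cd4) were 5974 and 5986, and CD4 cells 477 and 709. T cells with UMIs of both Cd4 and Cd8 (205 and 522) or of neither (295 and 397) were in neither gate. Cycling T cells (over 0.1% of UMIs on 28 cell cycle genes) were 4480 and 5147, and non-cycling T cells 2471 and 2467, while 23.2% and 23.5% of T cells had a share between 0.05% and 0.2%, near that limit. The non-T gate held 213 and 148 cells, neutrophil, macrophage and erythroid in their markers, and neutrophil markers came to 44.2 CPM in the T gate at both days.

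Over all kept cells, non-T cells included, the proteasome genes stood at day +14 close to their day +7 levels. The part of non-T cells in these sums, and in the values of single genes over all kept cells, was not tested. The immunoproteasome group summed to 2907 CPM (2896 to 2919) at day +7 and, at day +14, to 2868 CPM (2857 to 2880), which is a log2 ratio of -0.02. The other core summed to 4666 CPM (4651 to 4680) and 4836 CPM (4821 to 4850), a log2 ratio of 0.05. The regulatory particle was at 2296 CPM first and at 2316 CPM a week later (log2 ratio 0.01). Together with the other activators and the chaperones, the 46 proteasome genes took about 1 in 100 UMIs, 10267 CPM in the earlier and 10434 CPM in the later library.

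Of the 50 members, 47 had a mean of at least 10 CPM and at least 50 UMIs over both libraries. With 1 CPM added to each level, 0 of the 47 were at least 1.3-fold higher at day +14, against 22.7% of the 6919 genes that passed the same filter, and 0 were at least 1.3-fold lower, against 4.7%. The median log2 ratio was 0.03 over the 47 members and 0.18 over all those genes, and 39 of the 47 members lay below that median. Scaling by the median ratio of genes in place of the total lowered every log2 ratio over all cells by 0.21, so the 3 groups then read -0.23, -0.16 and -0.20. With that scaling 3 members were past 1.3-fold lower. The share of all genes past that limit is not given for this scaling, and the 4.7% above does not apply to it. The direction of the core and of the regulatory particle between days thus depended on the scaling.

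Within the immunoproteasome group the members did not move as 1 block. Psmb10, which replaces Psmb7, had 307 CPM on day +7 against 253 CPM on day +14, with a log2 ratio of -0.28 (-0.31 to -0.25) and the lowest of the 46 genes. Psmb9, which replaces Psmb6, was at 437 CPM and 486 CPM, a log2 ratio of 0.15 (0.13 to 0.17). Psmb8, which replaces Psmb5, was at 1262 CPM and 1204 CPM, a log2 ratio of -0.07. The 3 replacements for catalytic subunits thus differed among themselves by more than their counting intervals, with Psmb10 lower, Psmb9 higher and Psmb8 between them. The PA28 genes lay near zero change, Psme1 at 542 CPM and 569 CPM (log2 ratio 0.07) and Psme2 at 359.7 CPM and 357 CPM (log2 ratio -0.01, interval -0.03 to 0.01).

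The constitutive partners of those 3 subunits gave a comparison inside the same ring. Psmb7 had 154 CPM on day +7 against 142 CPM on day +14 (log2 ratio -0.12), so both members of the Psmb10 and Psmb7 pair were lower. Psmb6 was at 319 CPM and 326 CPM (0.03), and Psmb5 at 328 CPM and 325 CPM (-0.01). Among the other beta ring genes Psmb2 had the highest log2 ratio (0.08) and Psmb1 the lowest (-0.13, from 530.4 CPM to 484 CPM), while Psmb3, with the most UMIs of the ring, was at 528 CPM and 536 CPM (0.02). In the alpha ring, the gate of the core, Psma3 was highest at 348 CPM and 406 CPM (0.22) and Psma5 lowest at 214 CPM at both days (0.00). Psma7, with the most UMIs, was at 517 CPM and 552 CPM (0.09). In the T gate alone Psma5 was at 203 CPM and 214 CPM.

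The regulatory particle held members on either side. Over all kept cells, Psmd2 and Psmd1, the 2 large scaffold subunits of the 19S base, had the highest log2 ratios of its 17 genes. Psmd2 was at 83.2 CPM and 103 CPM (0.31) and Psmd1 at 68.8 CPM and 84.5 CPM (0.30). In the T gate alone the order differed, and Psmd3, at 60.2 CPM and 76.6 CPM, passed Psmd2, at 81.6 CPM and 103 CPM. Psmd1 was at 66.3 CPM and 84.9 CPM there. Erythroid-marked cells held 146 CPM of Psmd3 at day +7. Psmd8, a lid subunit, had the lowest of the non-ATPases and the most UMIs, at 278 CPM and 249.8 CPM (-0.15). Of the ATPases, which form the unfolding ring, Psmc3 had the lowest log2 ratio and the most UMIs, at 185 CPM and 163 CPM (-0.18). Psmc4 had the highest over all kept cells, at 133 CPM and 139 CPM (0.06). In the T gate alone Psmc6, at 111.6 CPM and 118.1 CPM, passed Psmc4, at 132.8 CPM and 139.4 CPM. Counting intervals lay above 0 for 7 of the 17 genes and below 0 for 6, with no such count over all genes.

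Outside the main particle, Psme3 (the nuclear cap PA28γ) had 37.8 CPM on day +7 against 45.4 CPM on day +14 (log2 ratio 0.27), and Psmf1 (the inhibitor PI31) at 25.7 CPM and 30.9 CPM (0.26). Psme4 (the cap PA200) was at 26.0 CPM and 27.9 CPM (0.10), the lowest ratio of the 3. Among the chaperones that help assemble the particle, Psmd5 had the highest log2 ratio, at 20.9 CPM and 25.6 CPM (0.29). Psmg3 had the lowest, at 39.1 CPM and 33.9 CPM (-0.21), while Psmg4, with the most UMIs, was at 83.2 CPM and 82.1 CPM (-0.02). In the T gate alone Psmg3 was at 36.8 CPM and 34.1 CPM. Psmg4 was at 79.8 CPM and 82.2 CPM there, so its direction differed from that over all kept cells. Erythroid-marked cells held 95.9 CPM of Psmg3 and 167 CPM of Psmg4 at day +7. Psma8, the testis form of an alpha subunit, had 9 UMIs at day +7 and 4 at day +14, and Psmb11, the thymus form of Psmb5, had 3 and 4, too few to compare. Psme2b, a gene that resembles Psme2 and may share reads with it, was at 8.87 CPM and 11.1 CPM, and Psmc3ip, a recombination cofactor, at 22.5 CPM and 23.0 CPM.

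**Figure D1:**
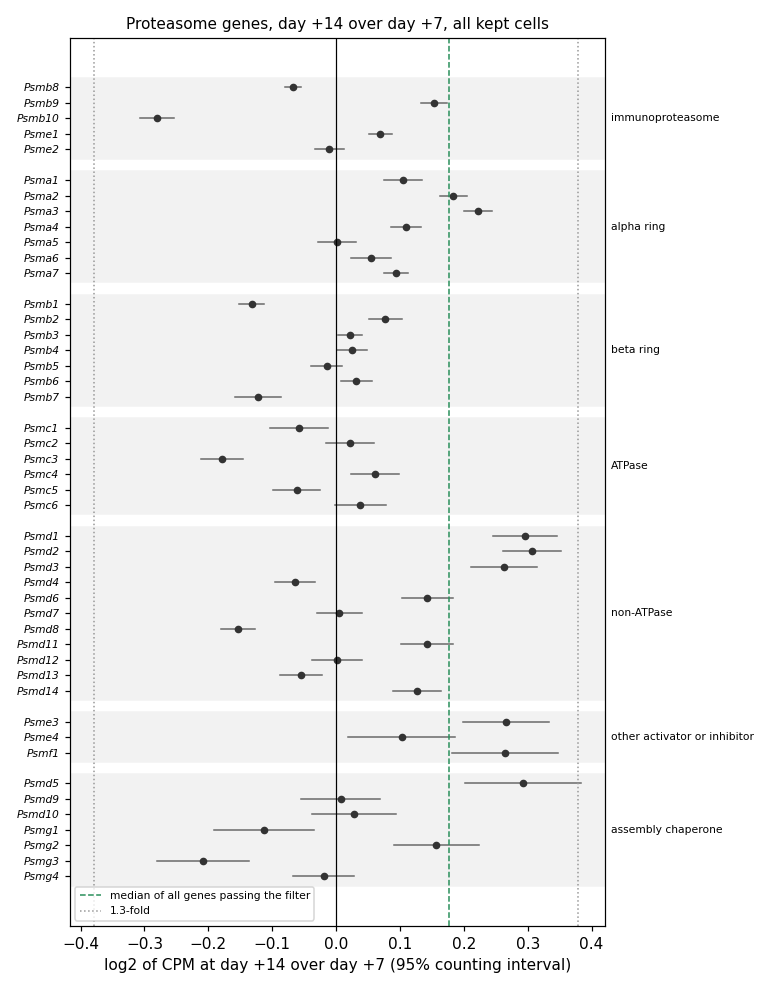
Log2 ratio of CPM at day +14 over day +7 (horizontal axis) for 46 proteasome genes (vertical axis, grouped by role), all kept cells; points are ratios and bars 95% counting intervals, with 1 library per day. Points lie between -0.28 (Psmb10) and 0.31 (Psmd2), inside the dotted 1.3-fold lines, and most lie left of the dashed median of all genes at 0.18.

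The direction between days was not the same in all gates. In CD8 cells the immunoproteasome group was at 2907 CPM and 2837 CPM (log2 ratio -0.04, interval -0.04 to -0.03), while the other core was at 4640.5 CPM and 4865 CPM (0.07) and the regulatory particle at 2264 CPM and 2338 CPM (0.05). In CD4 cells the immunoproteasome group was at 3032 CPM and 3144 CPM (0.05, interval 0.02 to 0.08), the other core at 4663 CPM and 4704 CPM (0.01) and the regulatory particle at 2245 CPM and 2146 CPM (-0.07). Scaled to total UMIs, the small log2 ratios thus pointed opposite ways in CD4 and CD8 cells for the immunoproteasome group and for the regulatory particle, and no test of that difference was possible. Median-ratio scaling within each gate made them negative in both, at -0.04 in CD4 and -0.25 in CD8 cells for the immunoproteasome group and at -0.16 and -0.17 for the regulatory particle. With cells of 6000 to 12000 UMIs only, the CD4 log2 ratio of the immunoproteasome group was -0.00, and the median depth of CD4 cells was 8295 UMIs at day +7 and 5324 UMIs at day +14.

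In CD8 cells 0 of 47 members were past 1.3-fold higher (23.8% of all genes) and 0 past 1.3-fold lower (4.86%). In CD4 cells 2 of 48 were past 1.3-fold higher (27.6% of all genes), Psmb9 and Psme2b, and 0 past 1.3-fold lower (5.32%). Psmb9 in CD4 cells had 424 CPM (2071 UMIs) on day +7 against 555 CPM (2822 UMIs) on day +14, a log2 ratio of 0.39 (0.31 to 0.47), and in CD8 cells at 438 CPM and 478 CPM, a log2 ratio of 0.12. Its level was thus similar in both lineages at day +7 and higher in CD4 cells at day +14. Median depth was 8295 and 5324 UMIs in CD4 cells, against 9288.5 and 8624 UMIs in CD8 cells. No value of Psmb9 within a range of depth is given for these gates, and the part of depth was not tested. Psmb10 was lower at day +14 in either lineage, with log2 ratios of -0.26 in CD8 cells and -0.16 in CD4 cells.

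In cycling T cells 0 of 47 members were past 1.3-fold higher at day +14 (22.5% of all genes) and 0 past 1.3-fold lower (4.66%). The immunoproteasome group was at 2945 CPM and 2883 CPM there (log2 ratio -0.03), the other core at 4834 CPM and 5079 CPM (0.07) and the regulatory particle at 2385 CPM and 2456 CPM (0.04). In non-cycling T cells the levels were 2843 CPM and 2867 CPM for the immunoproteasome group (0.01), 3947 CPM and 3706 CPM for the other core (-0.09), and 1821 CPM and 1643 CPM for the regulatory particle (-0.15). Scaled to total UMIs, the ordinary core and the regulatory particle were thus higher at day +14 in cycling cells and lower in non-cycling cells, by counting intervals that excluded 0 in all 4 cases. Median-ratio scaling within each gate turned the cycling values to -0.14 and -0.17 and gave -0.32 and -0.38 in non-cycling cells, so the direction in cycling cells depended on the scaling. In cycling CD4 cells alone, scaled to total UMIs, the regulatory particle gave -0.01 (-0.05 to 0.04) and the other core 0.08.

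Of the 47 members in non-cycling T cells, 1 was past 1.3-fold higher at day +14 (33.3% of all genes), Psmd1, at 36.7 CPM and 49.3 CPM. A further 2 were past 1.3-fold lower (6.75% of all genes), Psmd8 at 267 CPM and 201 CPM and Psmg3 at 36.3 CPM and 27.2 CPM. All 3 catalytic subunits of the ordinary core were lower in that gate at day +14, Psmb5 by -0.26, Psmb6 by -0.14 and Psmb7 by -0.26 on the log2 scale, while Psmb9 was higher by 0.37. The median depth of non-cycling cells was 6573 UMIs at day +7 and 4905 UMIs at day +14. Neutrophil markers summed to 24.8 CPM and 65.0 CPM in them, and to 19.02 CPM and 55.8 CPM in CD4 cells, against 209182 CPM in neutrophil-marked cells at day +7, and their part in these values was not tested. With cells of 6000 to 12000 UMIs only, the log2 ratios of that gate were 0.01 for the immunoproteasome group, -0.03 for the other core and -0.10 for the regulatory particle.

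The larger contrast was between cycling and non-cycling T cells of the same library. At day +7 the other core was at 4834 CPM in cycling and 3947 CPM in non-cycling cells, a log2 ratio of 0.29 (0.28 to 0.30), and at day +14 at 5079 CPM and 3706 CPM, with a log2 ratio of 0.45 (0.44 to 0.47). The regulatory particle gave 0.39 (0.37 to 0.41) at day +7 and 0.58 (0.56 to 0.60) at day +14. The immunoproteasome group gave 0.05 (0.04 to 0.07) and 0.01 (-0.01 to 0.02). The core and the regulatory particle were thus higher in dividing cells at both days, and the summed immunoproteasome group was nearly level.

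At day +7, 24 of 47 members were past 1.3-fold higher in cycling cells, against 23.3% of 6558 genes, and 0 were past 1.3-fold lower, against 16.2%. At day +14, 33 of 48 members were past 1.3-fold higher, against 24.6% of 7153 genes, and 0 past 1.3-fold lower, against 22.8%. The 24 comprised 7 of 14 genes of the other core, 12 of 17 of the regulatory particle and 0 of 5 of the immunoproteasome group, and the 33 comprised 12, 15 and 0 of the same groups. The median log2 ratio of the members was 0.38 and 0.52, against 0.03 and -0.02 for all genes.

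**Figure D2:**
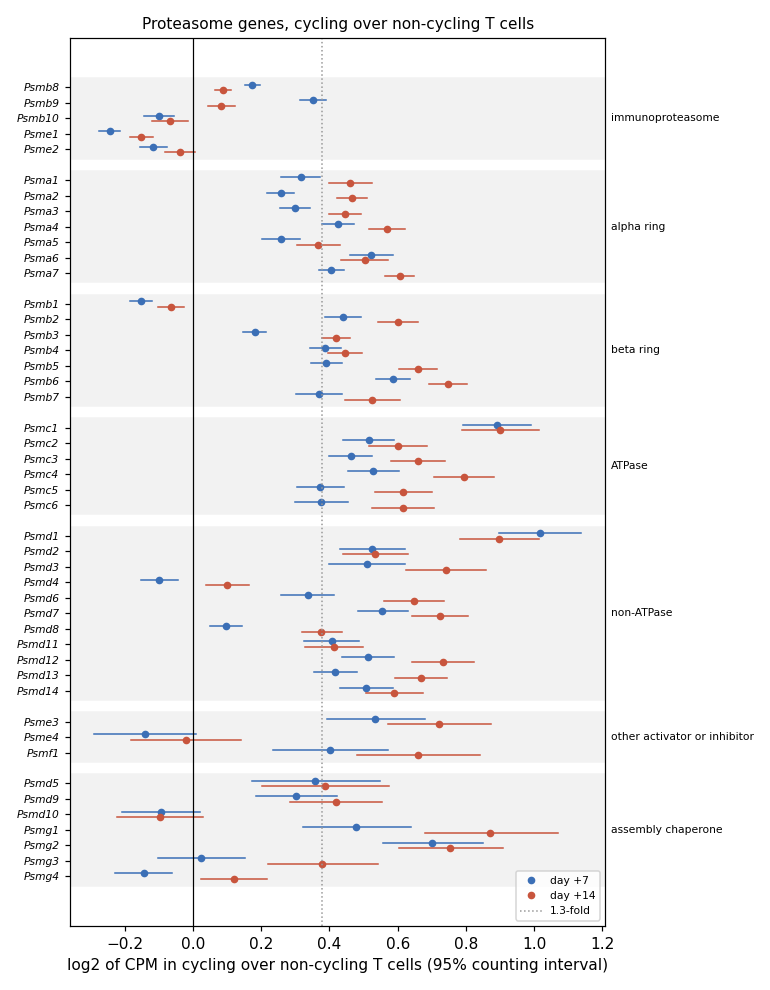
Log2 ratio of CPM in cycling over non-cycling T cells (horizontal axis) for 46 proteasome genes grouped by role (vertical axis), at day +7 (blue) and day +14 (red); points are ratios and bars 95% counting intervals within 1 library. The immunoproteasome genes lie between -0.24 and 0.35, and most core and regulatory particle genes lie at or right of the dotted 1.3-fold line.

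Single subunits of the core spread widely. Psmb6 was the highest of the beta ring, at 345 CPM in cycling and 229.8 CPM in non-cycling cells at day +7 (log2 ratio 0.59) and at 351 CPM and 209 CPM at day +14 (0.75). Psmb1, a non-catalytic subunit, was the exception of the ring, at 525 CPM in cycling and 583 CPM in non-cycling cells at day +7 (-0.15) and at 483 CPM and 505 CPM at day +14 (-0.06). Of the other catalytic subunits, Psmb5 gave 0.39 and 0.66 and Psmb7 0.37 and 0.52. In the alpha ring the lowest were Psma2 (0.26) and Psma5 (0.26) at day +7 and Psma5 (0.37) at day +14, and the highest Psma6 (0.52) at day +7 and Psma7 (0.61) at day +14. Counting intervals lay above 0 for 13 of the 14 genes at both days, all but Psmb1, with no such count over all genes.

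In the regulatory particle, Psmd1 had the highest ratio at day +7, at 74.3 CPM in cycling and 36.7 CPM in non-cycling cells (log2 ratio 1.02), and was at 91.9 CPM and 49.3 CPM at day +14 (0.90). Psmc1 was the highest ATPase, at 102 CPM and 54.9 CPM at day +7 (0.89) and at 97.7 CPM and 52.3 CPM at day +14 (0.90), while the lowest ATPases were Psmc5 (0.37) at day +7 and Psmc2 (0.60) at day +14. Psmd4, a ubiquitin receptor of the particle, was the lowest, at 188 CPM and 201 CPM at day +7 (-0.10) and at 188 CPM and 175 CPM at day +14 (0.10). Psmd8 followed it with 0.10 and 0.38. All 17 intervals lay above 0 at day +14 and 16 of 17 at day +7, all but that of Psmd4, with no such count over all genes.

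Among the smaller groups, Psme3 was higher in cycling cells (0.53 at day +7 and 0.72 at day +14), and Psme4 was not separated from 0 at either day (-0.14, interval -0.29 to 0.01, and -0.02, interval -0.18 to 0.14). Psmf1 gave 0.40 and 0.66. The chaperones Psmg2 (0.70 and 0.75) and Psmg1 (0.48 and 0.87) were highest, and Psmg4 (-0.14 at day +7) and Psmd10 (-0.10 at day +14) lowest. Psmc3ip, which is not a subunit, had the highest ratio of all members, at 27.2 CPM in cycling and 2.98 CPM in non-cycling cells at day +7 (3.19) and at 27.1 CPM and 2.58 CPM at day +14 (3.39).

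The 5 genes of the immunoproteasome group went different ways. Psmb9 was at 459.7 CPM in cycling and 360.3 CPM in non-cycling cells at day +7 (log2 ratio 0.35) and at 492 CPM and 465 CPM at day +14 (0.08). Psmb8 was at 1319 CPM and 1170 CPM at day +7 (0.17) and at 1222 CPM and 1150 CPM at day +14 (0.09). Psme1 was lower in cycling cells at both days, at 514 CPM and 608 CPM (-0.24) and at 561 CPM and 622 CPM (-0.15). Psmb10 (-0.10 and -0.07) and Psme2 (-0.12 and -0.04) were also lower, the last with an interval of -0.08 to 0.01 at day +14. The near level sum was thus made of higher Psmb8 and Psmb9 and lower Psmb10, Psme1 and Psme2.

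The same contrast was found within each lineage. In CD8 cells the log2 ratios of cycling over non-cycling cells at day +7 and day +14 were 0.05 and 0.04 for the immunoproteasome group, 0.29 and 0.47 for the other core, and 0.39 and 0.60 for the regulatory particle. In CD4 cells they were 0.07 and 0.03, 0.33 and 0.50, and 0.39 and 0.53. The difference between cycling and non-cycling cells was larger at day +14 for 41 of the 46 genes over all T cells, with a counting interval of the difference above 0 for 29 and below 0 for 2, Psmb8 and Psmb9. In CD4 cells, with fewer reads, those counts were 32, 9 and 2. No such count was made over all genes, so these counts cannot be called particular to proteasome genes. Over all genes, 23.3% at day +7 and 24.6% at day +14 were past 1.3-fold higher in cycling T cells, and 16.2% and 22.8% past 1.3-fold lower.

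The other core and the immunoproteasome group were also summed by the share of cell cycle UMIs. Over 7 bins of that share the immunoproteasome group stayed between 2761 CPM and 3239 CPM at day +7 and between 2783 CPM and 3069 CPM at day +14. The other core went from 3810.0 CPM in the lowest bin to 5090 CPM between 0.2% and 0.4% at day +7, and from 3480 CPM to 5253 CPM between 0.4% and 0.8% at day +14. In the top bin, over 0.8%, it was lower again, at 4237 CPM and 4599 CPM. The log2 ratio of the immunoproteasome group over the other core was -0.41 in the lowest bin and -0.80 between 0.4% and 0.8% at day +7, and -0.32 and -0.90 at day +14. Depth went with the bins, from a median of 6019 UMIs in the lowest to 14964.5 UMIs between 0.4% and 0.8% at day +7.

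**Figure D3:**
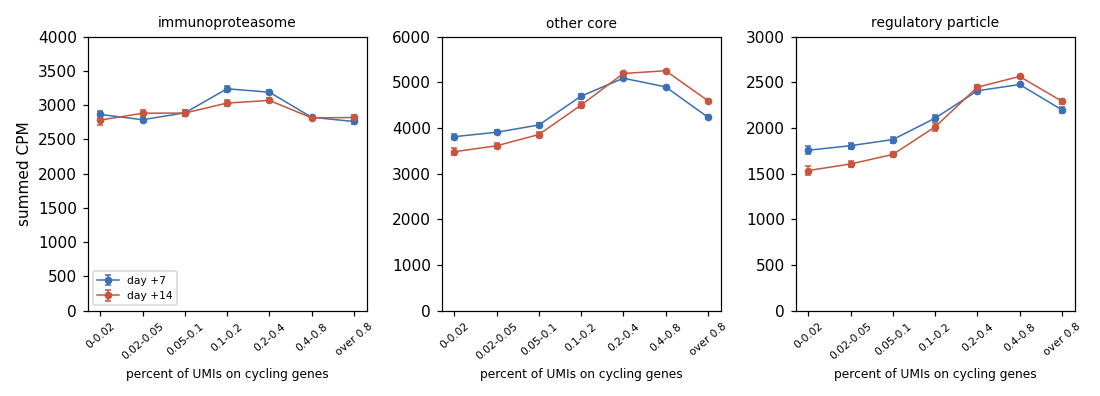
Summed CPM (vertical axis, from 0) of the immunoproteasome group, the other core and the regulatory particle in T cells, by percent of UMIs on 28 cell cycle genes (horizontal axis), at day +7 (blue) and day +14 (red); bars are 95% counting intervals. The other core lies at 3810.0 and 3480 CPM in the lowest bin and peaks at 5090 and 5253 CPM, and the immunoproteasome group stays between 2761 and 3239 CPM.

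Because cycling cells were deeper (medians of 12170.5 and 11164 UMIs, against 6573 and 4905 UMIs in non-cycling cells), the levels were also taken within ranges of depth. Among cells of 4000 to 6000 UMIs at day +7, the immunoproteasome group was at 3357 CPM in cycling and 2836 CPM in non-cycling cells, the other core at 4515 CPM and 3764 CPM, and the regulatory particle at 2113 CPM and 1767 CPM. Among cells of 14000 to 20000 UMIs the immunoproteasome group was at 2936 CPM and 2922 CPM, the other core at 4687 CPM and 4195 CPM, and the regulatory particle at 2330.3 CPM and 1903 CPM. The core and the regulatory particle were therefore higher in cycling cells in each of the 5 ranges at both days, and the immunoproteasome group was higher in the shallower cycling cells. In the deepest range its intervals overlapped at day +7, and at day +14 it was at 2877 CPM in cycling and 2552 CPM in 27 non-cycling cells.

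The balance of the 2 groups moved with depth as well as with cycling. At day +7 the log2 ratio of the immunoproteasome group over the other core went from -0.43 to -0.68 across the 5 ranges in cycling cells and was -0.41 in the shallowest and -0.52 in the deepest non-cycling cells. Cycling and non-cycling cells of 4000 to 6000 UMIs differed little in it at day +7 (-0.43 and -0.41) and more at day +14 (-0.53 and -0.31). With all cells of 6000 to 12000 UMIs, the log2 ratios of cycling over non-cycling cells were 0.15, 0.20 and 0.25 for the immunoproteasome group, the other core and the regulatory particle at day +7, and 0.08, 0.28 and 0.38 at day +14. The difference between the immunoproteasome group and the other core was then -0.05 at day +7, against -0.24 without the limit on depth, and -0.20 at day +14, against -0.45.

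At that depth 8 of 48 members were past 1.3-fold higher in cycling cells at day +7, against 14.5% of 6441 genes, a share near that of all genes, and 0 were past 1.3-fold lower, against 11.9%. At day +14 there were 16 of 48, against 18.8% of 7060 genes, and 0 past 1.3-fold lower, against 16.2%. The median log2 ratio of the members was 0.22 and 0.31 there, against -0.02 and -0.01 for all genes. The 8 were Psmb6, Psmb9, Psmc1, Psmc3, Psmd1, Psmd13, Psmg2 and Psmc3ip. In cells of all depths, ribosomal protein and mitochondrial genes were also left out of the total. That turned the immunoproteasome log2 ratio from 0.05 to -0.01 at day +7 and from 0.01 to -0.05 at day +14. The other core went from 0.29 to 0.23 and from 0.45 to 0.40. This total was not combined with the limit on depth.

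**Figure D4:**
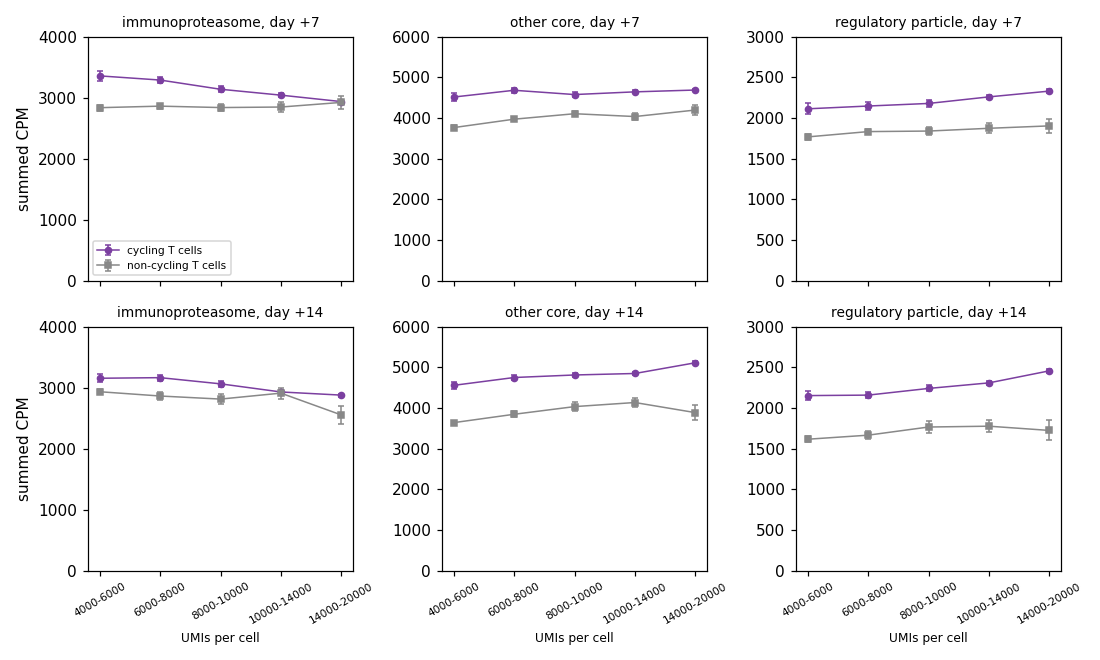
Summed CPM (vertical axis, from 0) of the immunoproteasome group, the other core and the regulatory particle in cycling (purple circles) and non-cycling (grey squares) T cells, by UMIs per cell (horizontal axis), at day +7 (upper row) and day +14 (lower row); bars are 95% counting intervals. The purple points lie above the grey ones for the core and the regulatory particle in every range, for example 4515 against 3764 CPM in the first range of the core at day +7.

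CD4 and CD8 cells were also set side by side at each day. The immunoproteasome group was at 3032 CPM in CD4 and 2907 CPM in CD8 cells at day +7, a log2 ratio of 0.06 (0.04 to 0.08), and at 3144 CPM and 2837 CPM at day +14, with a log2 ratio of 0.15 (0.13 to 0.17). The other core gave 0.01 and -0.05, and the regulatory particle -0.01 and -0.12. CD4 cells thus had somewhat more immunoproteasome UMIs at both days. The CD4 gate held fewer cycling cells at day +14 (309 of 709) than the CD8 gate (4279 of 5986), and within cycling and within non-cycling cells the immunoproteasome log2 ratio at day +14 was 0.15 and 0.17, while that of the other core was 0.06 and 0.03.

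At day +7 the higher sum in CD4 cells lay in the PA28 genes. Psme2 was at 479 CPM in CD4 and 351 CPM in CD8 cells at day +7 (log2 ratio 0.45, interval 0.39 to 0.51) and at 440.3 CPM and 343 CPM at day +14 (0.36). Psme1 gave 0.12 at both days. Psmb8, Psmb9 and Psmb10 were slightly lower in CD4 cells at day +7 (-0.03, -0.05 and -0.04) with intervals that reached 0, and at day +14 they were higher (0.09, 0.22 and 0.05), the last with an interval of -0.03 to 0.13. The median of the 5 genes was therefore -0.03 at day +7, of the opposite sign to the sum, and 0.12 at day +14.

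At day +7, 2 of 48 members were past 1.3-fold higher in CD4 cells, Psme2 and Psmg1, against 7.91% of 6614 genes, and 0 past 1.3-fold lower, against 5.31%. At day +14, 2 of 48 were past 1.3-fold higher, Psmg1 and Psme2b, against 12.9% of 7196 genes, and 1 past 1.3-fold lower, Psmc3ip, against 7.99%. Psmg1, a chaperone of alpha ring assembly, was at 39.5 CPM in CD4 and 28.8 CPM in CD8 cells at day +7 and at 40.5 CPM and 28.4 CPM at day +14. Psme2b shares much of its sequence with Psme2, so how reads were split between them is uncertain.

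For each catalytic subunit and its interferon-induced replacement, the share of the pair's UMIs that came from the replacement was compared between cells. The share itself is no measure of protein, since genes differ in length and in capture. For Psmb9 against Psmb6 it was 57.8% in T cells at day +7 and 59.8% at day +14. In non-cycling T cells it went from 61.1% (60.1% to 62.0%) to 69.0% (68.0% to 69.9%), and in cycling T cells from 57.1% to 58.4%. In CD4 cells it went from 59.1% to 65.9%, and in non-cycling CD4 cells from 62.1% (598 UMIs of Psmb9 and 365 of Psmb6) to 71.5% (1051 and 418 UMIs). The largest of these differences between days thus lay in non-cycling cells, of either lineage.

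For Psmb8 against Psmb5 the share was 79.8% at day +7 and 78.8% at day +14 in T cells, 79.3% and 77.9% in cycling cells, and 81.7% and 84.0% in non-cycling cells. It was thus lower at day +14 in cycling and higher in non-cycling cells. For Psmb10 against Psmb7 it was 66.2% and 64.0% in T cells, 64.7% and 62.7% in cycling cells, and 71.7% at both days in non-cycling cells. All 3 shares were higher in non-cycling than in cycling cells at both days. In non-cycling CD8 cells the Psmb9 share was 60.7% and 68.2%, so the pattern did not rest on CD4 cells. None of these shares was taken within a range of depth. Median depth was 6573 and 4905 UMIs in non-cycling T cells, against 12170.5 and 11164 UMIs in cycling T cells. The part of depth in these differences was not tested.

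**Figure D5:**
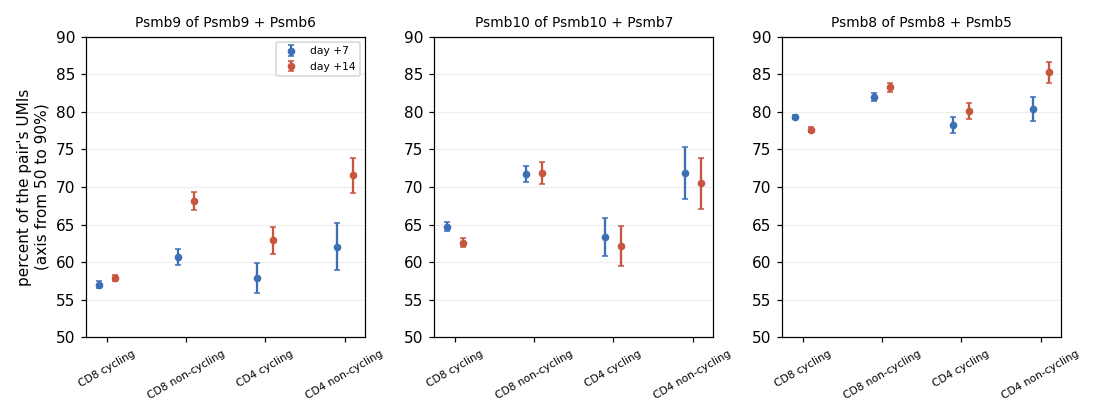
Percent of a pair's UMIs that came from the interferon-induced subunit (vertical axis, 50% to 90%) in cycling and non-cycling CD8 and CD4 cells (horizontal axis) at day +7 (blue) and day +14 (red); bars are exact 95% binomial intervals. The Psmb9 share in non-cycling cells is 60.7% and 62.1% at day +7 and 68.2% and 71.5% at day +14.

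Single cells carried these genes nearly without exception. After each cell was thinned to 4000 UMIs, which left out 137 of the T cells at day +7 and 878 at day +14, the median T cell held 12 immunoproteasome UMIs at day +7 and 11 at day +14, with quartiles of 9 and 14 at both days. The medians of the other core were 17 and 18 UMIs. In cycling cells the median was 19 core UMIs at day +7 and 20 at day +14, and in non-cycling cells 15 at both days, while the immunoproteasome median was 11 or 12 in each gate. The quartiles of the core were 15 and 22 UMIs in cycling and 12 and 19 UMIs in non-cycling cells at day +7, so the contrast between gates was a shift of a few UMIs per cell at both quartiles.

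The cells of the non-T gate differed from T cells in their own way. Neutrophil-marked cells (48 at day +7 and 86 at day +14) had 1850.5 CPM and 1821 CPM of the immunoproteasome group, against 2907 CPM and 2837 CPM in CD8 cells, log2 ratios of -0.65 and -0.64. The other core (-0.38 and -0.64) and the regulatory particle (-0.39 and -0.59) were lower there too, as were 44 of the 46 genes at day +7 and 45 at day +14. The share of all genes that were lower was not counted. Neutrophil markers took 209182 CPM and 237830 CPM in these cells, and their part in the lower CPM of other genes was not tested. All 5 genes of the immunoproteasome group were lower in neutrophil-marked than in CD8 cells at day +7, from Psmb8 (680 CPM against 1288 CPM) to Psmb9 (336 CPM against 438 CPM). Erythroid-marked cells at day +7 (123 cells, median 32632 UMIs) had 2862 CPM, near CD8 cells (log2 ratio -0.02), with more core (0.25) and more regulatory particle (0.49). The 27 erythroid-marked cells of day +14 had 2131 CPM. The group at day +7 had another make-up there, with Psmb8 at 855 CPM against 1288 CPM in CD8 cells, Psmb10 at 478 CPM against 301 CPM and Psme1 at 785 CPM against 529 CPM.

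Over the whole non-T gate the immunoproteasome group had 2629 CPM on day +7 against 2061 CPM on day +14 (log2 ratio -0.35), the other core at 5031 CPM and 3772 CPM (-0.42) and the regulatory particle at 2824 CPM and 1885 CPM (-0.58). The gate held 123 erythroid-marked cells at day +7 and 27 at day +14, and 48 and 86 neutrophil-marked ones. Erythroid-marked cells gave 3595642 of its 4771850 UMIs at day +7 and 191019 of 1324288 UMIs at day +14. The part of this mix in the sums was not tested. The log2 ratio of the other core between days was 0.05 within erythroid-marked, -0.19 within neutrophil-marked and 0.55 within macrophage-marked cells. Within neutrophil-marked cells the immunoproteasome log2 ratio between days was -0.02 (-0.12 to 0.08), and within macrophage-marked cells (42 and 32 cells) it was 0.41 (0.24 to 0.58). Within erythroid-marked cells it was -0.43 (-0.57 to -0.28). Leaving out the 6% of barcodes with the most UMIs brought the ratio of the whole gate to -0.04.

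Genes that work with the proteasome were listed separately, 17 in all. Between days 11 were higher and 6 lower at day +14, with a median log2 ratio of 0.08 against 0.18 for all genes. Past 1.3-fold higher were 2 of the 17 (22.7% of all genes), Ddi2 (12.8 CPM and 20.6 CPM) and Ecpas (23.5 CPM and 32.7 CPM), and past 1.3-fold lower 1 (4.7% of all genes), Ngly1 (42.8 CPM and 32.3 CPM). Ddi2, a protease, and Ngly1, a deglycosylase, both process NFE2L1, the factor that raises proteasome genes, and Nfe2l1 itself was at 17.7 CPM and 21.1 CPM. In cycling over non-cycling cells Uchl5 and Usp14, deubiquitinases of the regulatory particle, had log2 ratios of 1.32 and 0.85 at day +7 and 1.58 and 0.77 at day +14. Pomp, the chaperone of core assembly, gave 0.08 and 0.29, and Nfe2l1 -0.18 and -0.42.

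Of 13 genes of antigen processing and interferon signalling, 12 passed the filter. Between days 10 of the 12 were higher at day +14 and 6 past 1.3-fold higher (22.7% of all genes), and their median log2 ratio was 0.42 against 0.18 for all genes, with Nlrc5, the activator of MHC class I genes, the highest (24.6 CPM and 47.1 CPM) and Ifngr1, a chain of the interferon-γ receptor, the lowest (279 CPM and 259 CPM). Tap1, which starts next to Psmb9 on the opposite strand, was at 120 CPM and 197 CPM (log2 ratio 0.72), while Psmb9 gave 0.15. Tap2, beside Psmb8, was at 100.2 CPM and 123 CPM (0.30), while Psmb8 gave -0.07. In cycling over non-cycling cells 10 of the 12 genes were lower at day +7 and 11 at day +14, of which 6 (16.2% of all genes) and 8 (22.8%) were past 1.3-fold, among them B2m (-0.44 and -0.56), while the peptide-trimming gene Erap1 was the highest (0.17 and 0.18). Genes of these 2 lists other than the highest and the lowest were picked for naming after their values were seen.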

How the data were processed

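Single-cell libraries of sorted donor T cells at day +7 and day +14 were taken as the authors deposited them, as counts of UMIs per gene and barcode. Cell Ranger 6.1.2 and the build mm10 are named in the submitters' processing notes. No sample numbers pair the libraries, and the day came from the titles.

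Barcodes with 500 to 7500 genes and at most 15% mitochondrial UMIs were kept. No doublet caller was run; leaving out the 6% of barcodes with the most UMIs was tried instead. A barcode entered the T gate with at least 3 UMIs of 6 T cell genes and more of these than of 26 genes of other lineages, and the non-T gate when the other lineages had more. CD4 and CD8 gates needed 1 UMI of the own gene and 0 of the other. T cells with over 0.1% of UMIs on 28 cell cycle genes were called cycling; 23.2% and 23.5% of T cells lay near that limit.

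UMIs were summed per gate and divided by the gate's total to give CPM. Intervals at 95% are exact Poisson or binomial (Clopper-Pearson) intervals, or normal approximations for differences of log2 ratios, and cover counting error only. A gene counted as past the fold at 1.3-fold after adding 1 CPM, among genes of at least 10 CPM and 50 UMIs. No test was made, since each day had 1 library. The procedure was run on simulated counts that held counting error only. That run cannot show how the procedure handles the spread between cells, mice or libraries. The members and lists were chosen with earlier results of these data known. All immunoproteasome genes, their constitutive partners, and in every other role the highest, the lowest and the most abundant gene were named. Gene coordinates are those of GENCODE M21. Promoter windows came from RefSeq (GRCm38.p6). Python 3.11.15, numpy 2.4.6, scipy 1.17.1, pandas 2.3.3 and matplotlib 3.10.9 were used. Values of 1 gene of the comparison lists are not reported here.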

Additional observations from a re-analysis of the deposited data

Results flagged for a closer look

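The log2 ratio of day +14 over day +7 had opposite signs in gates of the same libraries in several cases when levels were scaled to total UMIs. Median-ratio scaling within each gate made the values of the 3 gene groups negative in CD4, CD8, cycling and non-cycling cells alike, and left the ratio of the immunoproteasome group over the other core as it was. With 1 library per day, none of these differences was tested between mice.

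For the immunoproteasome group the log2 ratio was 0.0525 in CD4 cells and -0.0351 in CD8 cells. For the regulatory particle it was -0.0652 in CD4 cells and 0.0459 in CD8 cells.

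Between cycling and non-cycling T cells, the other core had log2 ratios of 0.0714 and -0.0911, and the regulatory particle 0.0427 and -0.1483. The log2 ratio of the immunoproteasome group over the other core differed between days by -0.1023 in cycling and 0.1033 in non-cycling cells. Within CD8 cells the same pattern was found, with 0.0734 in cycling and -0.1013 in non-cycling cells for the other core, 0.0496 and -0.1658 for the regulatory particle, and -0.1130 and 0.0742 for the immunoproteasome group over the other core. Within CD4 cells the other core gave 0.0783 and -0.0905. The regulatory particle gave -0.0074 in cycling CD4 cells, with an interval that included 0, and -0.1468 in non-cycling ones.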

How the results depend on the processing

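No paired analysis was possible because each day had 1 library. Of 163 values recomputed under an alternative, 95 moved by less than their counting interval, 61 moved by more and 7 were counted as changed in sign. The main intervals of these 7 excluded 0. Other values, with main intervals that included 0, also took the other sign under some alternatives and are not among the 7. They include the immunoproteasome group between days in non-cycling cells (0.0121). Its change against the other core in CD4 (0.0398) and non-T cells (0.0642) is also among them. Cells of 6000 to 12000 UMIs only, and both scalings between gates of a library, were chosen after seeing the data. Intervals cover counting error only, so small log2 ratios between days cannot be told apart from differences between libraries. The causes of the shifts were not tested. All values below are log2 ratios unless called counts.

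Median-ratio scaling gave, between days over all kept cells, -0.2277 for the immunoproteasome group, -0.1566 for the other core and -0.1957 for the regulatory particle, the last pair with changed sign. For the immunoproteasome group it gave -0.2549 in CD8, -0.0421 in CD4 (changed sign), -0.2426 in cycling and -0.2156 in non-cycling cells. The count of members past 1.3-fold lower became 3, with no share of all genes given for this scaling. A total without ribosomal protein and mitochondrial genes gave 0.0446 for the other core over all cells and -0.6201 for the immunoproteasome group in the non-T gate.

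With each cell weighted equally, the other core (-0.0055) and the regulatory particle (-0.0364) changed sign over all cells. The immunoproteasome group gave -0.0442 in cycling and -0.2250 in non-T cells. Its change against the other core was -0.0577 in CD8, 0.1453 in CD4, -0.0835 in cycling and 0.1497 in non-cycling cells, and all members gave 0.3343 in cycling over non-cycling cells at day +14.

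The median of members in place of the sum gave, over all cells, -0.0107 for the immunoproteasome group, 0.0433 for the other core and 0.0220 for the regulatory particle. For the immunoproteasome group it gave 0.0132 in CD4, -0.0021 in cycling, -0.0244 in non-cycling and -0.2300 in non-T cells. The non-cycling value was 0.0121 as a sum, with an interval that included 0. Against the other core it gave -0.0243 in CD4 (0.0398 as sums), -0.0641 in cycling and 0.0179 in non-cycling cells. Over cycling and non-cycling cells all members gave 0.3821 at day +7 and 0.5294 at day +14. The immunoproteasome group in CD4 over CD8 cells changed sign at day +7 (-0.0265) and gave 0.1229 at day +14.

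Thinning to 4000 UMIs gave -0.0253 in CD8 cells between days, 0.1243 in CD4 over CD8 cells at day +14, and 0.2234 and 0.3068 for all members in cycling over non-cycling cells. It gave a count of 1 member past 1.3-fold higher, with no share of all genes given for thinned cells. Without the 6% of barcodes with the most UMIs the non-T gate gave -0.0401 for the immunoproteasome group and -0.0497 against the other core, and all members in cycling over non-cycling cells 0.2161 and 0.3195. In the T gate only, the other core gave 0.0633 and the regulatory particle 0.0365.

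With a cycling limit of 0.05%, the immunoproteasome group against the other core gave 0.1364 in non-cycling cells and all members 0.3573 in cycling over non-cycling cells at day +14. With 0.2%, the immunoproteasome group gave -0.0214 in cycling and -0.0176 in non-cycling cells, 0.0643 against the other core in non-cycling cells, and all members 0.1796 and 0.2935. With at least 2 UMIs of Cd4 or Cd8, the immunoproteasome group gave 0.0257 and 0.1249 in CD4 over CD8 cells.

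Cells of 6000 to 12000 UMIs gave 0.0660 for the other core and 0.0408 for the regulatory particle over all cells. The immunoproteasome group gave -0.0030 in CD4 (changed sign) and -0.0607 in cycling cells. Against the other core it gave -0.0475 in CD4, 0.0395 in non-cycling and -0.1324 in non-T cells, and in CD4 over CD8 cells 0.0890 and 0.1167. All members in cycling over non-cycling cells gave 0.1926 and 0.2355. For that contrast in cells of all depths, median-ratio scaling gave 0.2526 and 0.4265, and the total without ribosomal protein and mitochondrial genes 0.1709 and 0.2842.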
